A study of Mus musculus with 10 samples.

Results

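Mouse embryonic stem cells (ESCs) that lack Otx2 and carry a tetON Otx2 transgene, which doxycycline (dox) switches on, were profiled by RNA sequencing with dox and without dox, 1 library each. The genes described are the 9304 of 22867 symbols with at least 5 FPKM (fragments scaled to the length of the transcript in kilobases and to the number of mapped fragments) in either library. By a size rule, 597 of the 9304 were higher with dox, among them Otx2, the photoreceptor gene Guca1a, Car4, Krt18 and the DNA methyltransferase genes Dnmt3a and Dnmt3b. Lower with dox were 531, among them the naive pluripotency genes Esrrb, Nr0b1, Tcl1, Klf4, Nanog and Zfp42, the signalling genes Spry4, Bmp4 and Inhbb, and the neuronal cytoskeleton genes Tubb3 and Stmn2. With 1 library on each side there is no replicate check and no p-value for these differences.

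The series compared ESCs with epiblast-like cells (EpiLCs) and examined loss and overexpression of Otx2. The library with dox and the library without dox both came from Otx2-/- cells with the tetON Otx2 transgene, of strain 129SV, kept as ESCs in serum-free 2i + LIF medium, per the labels. Besides LIF, this medium holds 2 inhibitors, PD0325901 (0.8 µM) against MEK and CHIR99021 (3.3 µM) against GSK3. The sources used here do not give the dose and duration of dox, the deleted part of Otx2 or the number of clones. Another 4 ESC libraries had no transgene and no dox: 1 of Otx2-/- ESC, 2 replicates of the wild-type line R1 and 1 of the wild-type line E14. They grew in the same medium and, with the library without dox, form the 5 ESC libraries without dox that give the spread of ESC cultures. The EpiLC libraries were R1 without activin A, R1 with activin A at 20 ng/ml, E14, and Otx2-/-. Use of activin A for the E14 and Otx2-/- EpiLC libraries is not stated in the labels. EpiLCs were made with bFGF and knockout serum replacement, which takes cells out of the 2i + LIF state. No library of dox-treated cells without the transgene was analysed, so an action of dox itself and one of Otx2 cannot be told apart.

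Otx2 encodes a homeodomain transcription factor of the bicoid class. It is known for its role in the anterior neural plate and forebrain, and later in photoreceptors and the retinal pigment epithelium, and it is switched on as naive ESCs leave self-renewal towards the formative epiblast. Naive ESCs are held by a network that includes Esrrb, Klf4, Nanog and Tfcp2l1, while formative cells express Fgf5, Pou3f1 and the de novo DNA methyltransferases. In 2i medium the MEK inhibitor blocks FGF and ERK signalling and the GSK3 inhibitor stabilises beta-catenin.

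Otx2 lies on chromosome 14 at 49277859 to 49282547 (mm9, as in the deposited tables). It had 1059.3 FPKM with dox, against 45.8 FPKM without dox, a 23.1-fold difference. It had 7.85 FPKM in Otx2-/- ESC, 5.72 and 9.09 FPKM in R1 ESC replicates 1 and 2, and 3.96 FPKM in E14 ESC. The value with dox was the highest of all 10 libraries, above the 107, 151 and 39.9 FPKM of R1 EpiLC without activin A, R1 EpiLC with activin A and E14 EpiLC. The uninduced transgenic cells were also above every ESC library without the transgene. Reads of the transgene and of any exons left at the deleted locus count alike, so these sources cannot be told apart.

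The approximate depth, in units of 1e6 fragments, was 9.16 with dox and 15.1 without dox, within 6.52 to 20.6 over the 10 libraries. About 92 fragments with dox and 151 without dox would lie behind 5 FPKM in a transcript of 2 kb. Markers for ESC identity (Pou5f1, Sox2, Nanog, Klf4, Esrrb and Zfp42) were all detected with dox but summed to 855 FPKM, against 2312 to 2521 FPKM in the 5 ESC libraries without dox. Sums of markers with dox and over those 5 libraries were 6.04 and 1.504 to 3.01 FPKM for primitive endoderm, 1.63 and 0.980 to 4.004 FPKM for trophoblast, 1.90 and 2.47 to 12.2 FPKM for primitive streak, 13.9 and 4.82 to 11.1 FPKM for neural cells, and 1.80 and 1.01 to 2.88 FPKM for fibroblast feeders. The primitive endoderm and neural sums with dox were above that range and the streak sum below it, and their part in the results was not tested. Gata4, Gata6 and Dab2 were above all 5 libraries, while the primitive endoderm marker Sox7 had 0.302 FPKM with dox, against 0.305 FPKM or more. Nes alone gave 12.9 FPKM of the neural sum, and the other neural markers were below all 5 libraries, Sox1 with 0.475 FPKM with dox, against 1.38 FPKM or more, and Pax6 with 0.501 FPKM with dox, against 0.865 FPKM or more. Of these markers the trophoblast gene Cdx2 was at 0 with dox and the others were above 0. In bulk RNA, fewer cells of a type and less RNA per cell cannot be told apart.

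The size rule counted genes whose log2 ratio of (FPKM + 1), with dox over without dox, was 1 or more, or -1 or less. The 597 higher genes are 6.42% of the 9304 and the 531 lower genes 5.71%, together 12.1%, the share to set beside each list below. The median log2 ratio was -0.06, with the 10th and 90th percentiles at -0.68 and 0.70. Small RNAs made up 33 of the higher and 81 of the lower, and a further 9 and 12 were entries listed at exactly 0 in 1 library of the pair although the median of the 10 libraries reached 5 FPKM. This left 555 higher and 438 lower genes, called usable here. The minimum of 5 FPKM was met with dox alone by 358 of the 597 and without dox alone by 278 of the 531, and such genes could be counted in 1 direction only, in the lists below too. Of the usable genes, 159 were higher and 75 lower by 4-fold or more, and 41 higher and 16 lower by 8-fold or more. At the threshold, BC057022, with 7.73 FPKM with dox and 3.36 FPKM without dox, was just inside and 6530401N04Rik, with 11.5 and 5.27 FPKM, just outside. Ikbkg, with 5.001 FPKM with dox and 4.50 FPKM without dox, just entered the 9304, and Fam57a, with 4.996 FPKM with dox and 2.90 FPKM without dox, did not.

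**Figure D1:**
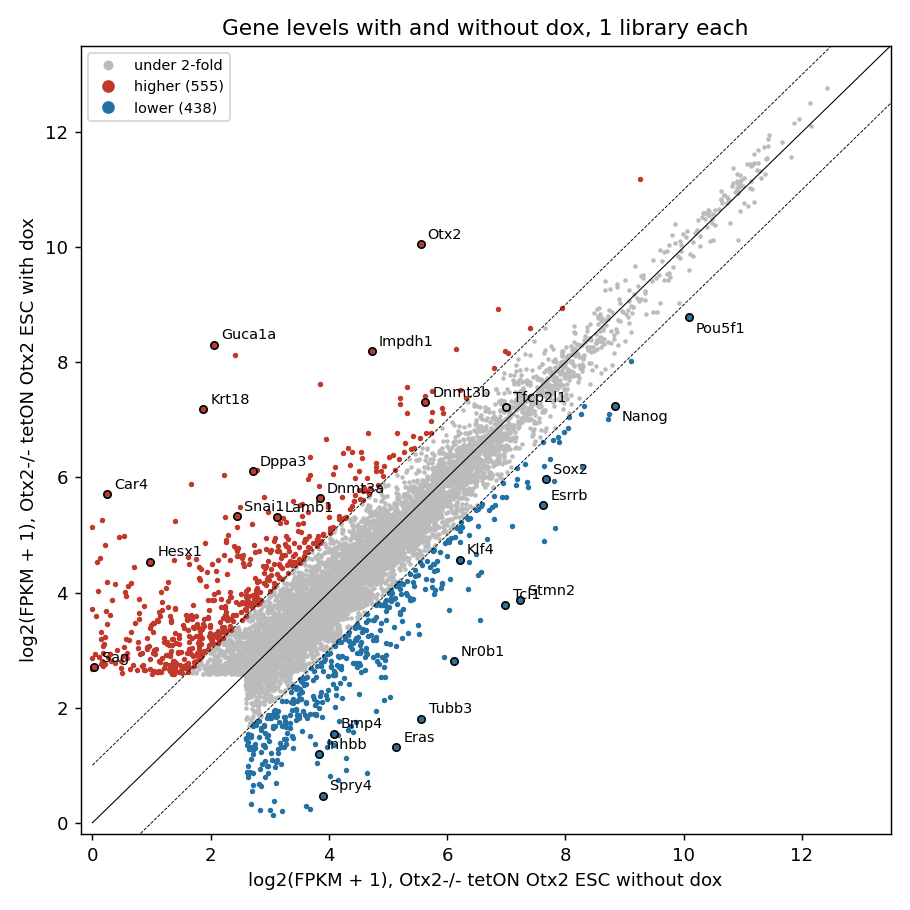
Level of each usable gene as log2(FPKM + 1) in the library with dox (y axis) and in the library without dox (x axis), 1 point per gene. Red points are the 555 higher and blue points the 438 lower genes, grey points are under 2-fold, dashed lines mark 2-fold, and Otx2, Guca1a and Impdh1 stand far above the diagonal while Nr0b1, Tubb3 and Eras stand far below it.

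The spread of ESC cultures puts these counts in scale. With dox, 545 of the 555 usable higher genes were above all 5 ESC libraries without dox, and 398 of the 438 usable lower genes were below all 5. Over all entries 568 (6.1% of the 9304) and 425 (4.57%) did so, while 28.4% of the 9304 lay above and 33.8% below that range whatever their fold. The library without dox is 1 of the 5 and also the reference of the size rule, so each counted gene lay beyond it by construction. The 28.4% and 33.8% are for genes not chosen by fold, so they are no like background. The same limit holds for the lists below. In the 10 pairs of ESC libraries without dox, the same rule counted between 55 and 883 usable genes in both directions together, against 993 in the dox pair. R1 ESC replicate 1 stood apart: the 4 pairs with it had 528 or more, and the 6 pairs without it had 55 to 154. As a share of genes with 5 FPKM, the library without dox differed in 2.7% from Otx2-/- ESC, in 3.48% from R1 ESC replicate 2 and in 2.58% from E14 ESC. Otx2-/- ESC differed in 2.64% from R1 ESC replicate 2 and in 2.02% from E14 ESC, and R1 ESC replicate 2 differed in 2.47% from E14 ESC. R1 ESC replicate 1 differed in 9.53% from the library without dox, in 9.36% from Otx2-/- ESC, in 11.5% from R1 ESC replicate 2 and in 7.71% from E14 ESC.

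**Figure D2:**
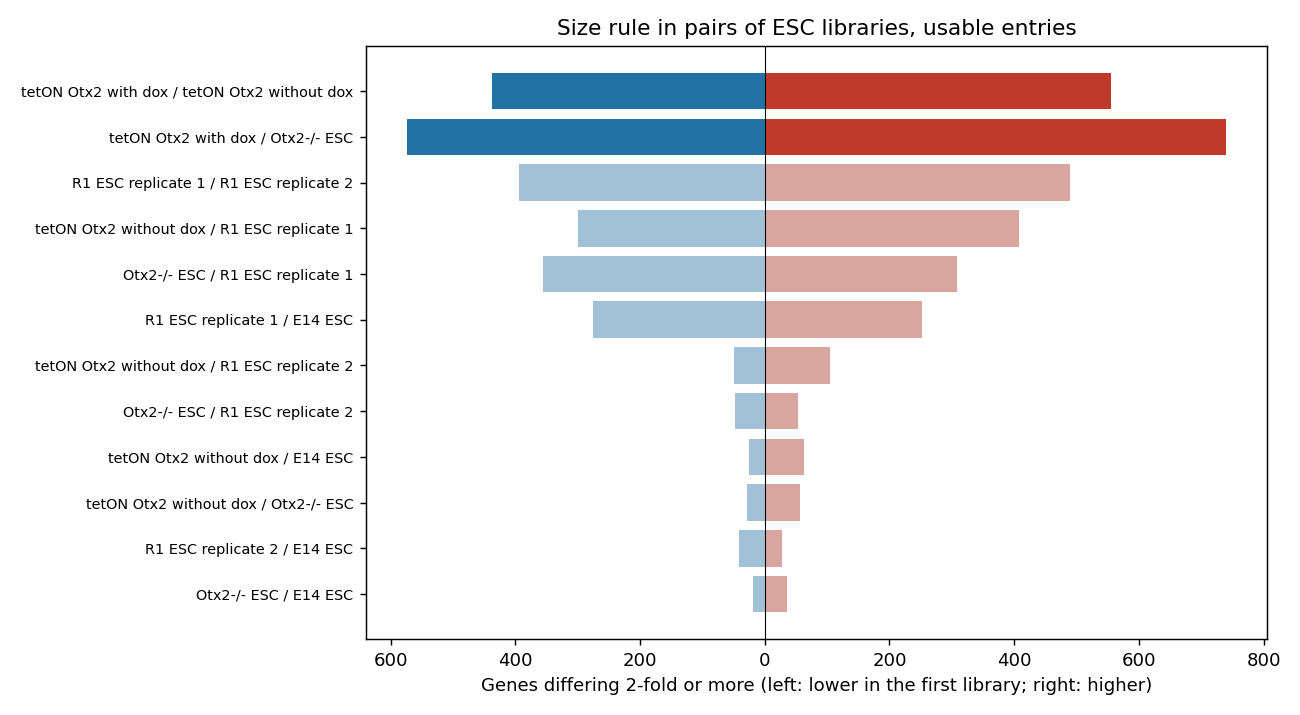
Number of usable genes that differ 2-fold or more in pairs of ESC libraries (x axis, number of genes), to the right those higher and to the left those lower in the library named first. The top row is the dox pair with 555 and 438 genes, the row under it sets the same dox library against Otx2-/- ESC, and the pale rows are the 10 pairs without dox, of which the 4 with R1 ESC replicate 1 have 528 or more in both directions together.

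Otx2-/- ESC without a transgene served as another reference. Against it 786 genes were higher with dox (8.34% of 9422) and 696 lower (7.39%). Both comparisons share the dox library. The 533 genes higher against both references are 89.3% of the 597 and 67.8% of the 786, and the 394 lower against both are 74.2% of the 531 and 56.6% of the 696. The uninduced library was itself above all 4 ESC libraries with no transgene for 181 of the 555 usable higher genes (32.6%), where 21.3% of all usable genes were. For the lower genes it was below all 4 in 73 of 438 (16.7%), where 18% of all usable genes were. Dppa3, for example, had 68.1 FPKM with dox and 5.55 FPKM without dox, and 1.31 FPKM in Otx2-/- ESC.

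Among the usable genes, 55 were higher with dox and under 1 FPKM in every ESC library without dox, and 31 of these were under 1 FPKM in all 9 other libraries of the series. Guca1a, which encodes a guanylate cyclase activator of photoreceptors, had the largest log2 ratio, 6.25. It had 315 FPKM with dox, against 3.14 FPKM without dox, 1.94 FPKM in Otx2-/- ESC, 1.00 and 1.86 FPKM in R1 ESC replicates 1 and 2, and 1.82 FPKM in E14 ESC. No EpiLC library exceeded 3.91 FPKM. The dox library alone was high in this gene, and the other 9 libraries lay close together. Car4, a membrane-bound carbonic anhydrase, had 51.3 FPKM with dox, against 0.193 FPKM without dox, 0.121 FPKM in Otx2-/- ESC, 0.122 and 0.211 FPKM in R1 ESC replicates 1 and 2, and 0.318 FPKM in E14 ESC (log2 ratio 5.45). Krt18, a keratin of simple epithelia, had 144 FPKM with dox, against 2.66 FPKM without dox, 2.01 FPKM in Otx2-/- ESC, 2.32 and 3.06 FPKM in R1 ESC replicates 1 and 2, and 2.20 FPKM in E14 ESC (log2 ratio 5.31). Both genes were low in all 5 ESC libraries without dox and high in EpiLC, where Car4 had 53.5 to 76.9 FPKM and Krt18 20.6 to 84.6 FPKM in R1 and E14.

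Other genes among the 12 largest log2 ratios were nearly silent in ESC, apart from Hipk3. Hipk3, a protein kinase gene, had 280 FPKM with dox and 4.29 FPKM without dox, but its level in the 5 ESC libraries without dox ran between 2.62 and 53.9 FPKM. Pcp4, a calmodulin-binding peptide gene of Purkinje cells, had 34.4 FPKM with dox and was listed at 0 in all 5 ESC libraries without dox, so no fold is given. Sept4, a septin, had 37.4 FPKM with dox and 0.124 FPKM without dox. Igfbp5, which binds insulin-like growth factors, had 27.3 FPKM with dox and 0.152 FPKM without dox. Susd3 had 30.1 and 0.358 FPKM with and without dox, Stbd1, a glycogen-binding protein, 23.2 and 0.0884 FPKM, Epx, eosinophil peroxidase, 22.1 and 0.0551 FPKM, and Cited1, a transcriptional co-regulator, 30.6 and 0.451 FPKM. All 7 were above the 5 ESC libraries without dox, in which Cited1 reached 2.27 FPKM and each of the others under 0.5 FPKM.

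Promoter sequences of 4 genes higher with dox are shown because Otx2 is known to bind sites with the core TAATCC. They come from the RefSeq promoter table of build GRCm38.p6, 300 bases each, from 250 bases before to 50 after the annotated start, 5′ to 3′ on the gene's strand. Guca1a (chr17:47400557-47400856, minus strand) and Sag (chr1:87803430-87803729, plus strand), both photoreceptor genes and Sag chosen after its values were seen, each hold the core once. Car4 (chr11:84957504-84957803, plus strand) and Krt18 (chr15:102027966-102028265, plus strand) hold none in this window. Capitals mark GGATTA, the reverse complement of TAATCC, which starts at -57 in Guca1a and at -87 in Sag, counted from the annotated start.
Guca1a: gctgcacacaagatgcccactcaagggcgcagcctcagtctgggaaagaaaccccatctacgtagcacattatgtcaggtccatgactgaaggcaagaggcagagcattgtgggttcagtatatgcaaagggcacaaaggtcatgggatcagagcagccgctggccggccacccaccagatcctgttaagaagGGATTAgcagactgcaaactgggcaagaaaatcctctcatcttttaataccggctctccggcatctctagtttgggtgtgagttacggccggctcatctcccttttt
Sag: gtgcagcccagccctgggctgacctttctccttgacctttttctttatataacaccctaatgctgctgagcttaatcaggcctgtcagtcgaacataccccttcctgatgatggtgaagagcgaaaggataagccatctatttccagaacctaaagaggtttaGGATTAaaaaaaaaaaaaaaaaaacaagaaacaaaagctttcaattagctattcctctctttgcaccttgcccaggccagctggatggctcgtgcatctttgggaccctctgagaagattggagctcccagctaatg
Car4: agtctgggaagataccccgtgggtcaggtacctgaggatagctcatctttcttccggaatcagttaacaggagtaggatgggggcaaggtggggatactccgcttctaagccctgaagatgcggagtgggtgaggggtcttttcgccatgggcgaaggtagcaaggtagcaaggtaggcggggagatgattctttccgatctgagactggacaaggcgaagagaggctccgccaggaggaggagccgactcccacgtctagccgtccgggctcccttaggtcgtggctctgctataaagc
Krt18: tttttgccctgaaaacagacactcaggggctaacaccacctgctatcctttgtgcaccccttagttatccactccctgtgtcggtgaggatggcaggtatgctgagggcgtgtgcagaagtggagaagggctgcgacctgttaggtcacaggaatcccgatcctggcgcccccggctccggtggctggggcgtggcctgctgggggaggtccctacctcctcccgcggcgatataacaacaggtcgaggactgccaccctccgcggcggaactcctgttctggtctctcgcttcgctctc

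The core was searched on both strands in every matched promoter. It was present for 37 matched genes among the usable higher ones (9.44%), 21 of 309 among the lower (6.8%) and 382 of 5850 among the genes that were neither (6.53%). The core was in 7.06% of all 32851 promoters listed. Among genes with a single promoter in the table the shares were 7.07%, 4.78% and 5.56%. No test was run on these shares, and a match is a description of letters and not a binding site.

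Of the 18 naive pluripotency factors listed, all with at least 5 FPKM, 10 were lower and 2 higher with dox (66.7% counted). All 12 lay outside the range of the 5 ESC libraries without dox. The median log2 ratio of the 18 was -1.08, against -0.06 over all 9304 genes. Esrrb, an orphan nuclear receptor, had 45.0 FPKM with dox, against 196 FPKM without dox, 214 FPKM in Otx2-/- ESC, 217 and 194 FPKM in R1 ESC replicates 1 and 2, and 214 FPKM in E14 ESC (log2 ratio -2.10). Nr0b1, an orphan nuclear receptor on chromosome X, had 5.99 FPKM with dox, against 68.1 FPKM without dox, 63.8 FPKM in Otx2-/- ESC, 66.0 and 71.6 FPKM in R1 ESC replicates 1 and 2, and 69.2 FPKM in E14 ESC (log2 ratio -3.31). Both were close to constant in the 5 ESC libraries without dox, and the dox library alone was low. Tcl1, a co-activator of Akt, had 12.8 FPKM with dox and 126 FPKM without dox, and Nr5a2, another nuclear receptor, 6.65 and 24.0 FPKM.

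The zinc finger factor Klf4 had 22.8 FPKM with dox and 73.2 FPKM without dox (log2 ratio -1.64). Nanog, whose entry also carries the symbol of a pseudogene, had 150 FPKM with dox and 454 FPKM without dox (-1.59), and Zfp42, also called Rex1, 136 and 428 FPKM (-1.65). Tfcp2l1, a factor of the same network, was not counted: it had 148 FPKM with dox and 126 FPKM without dox (0.23), within the 117 to 175 FPKM of the 5 ESC libraries without dox. The 2 list members that were higher were Dppa3, a maternal and germ cell factor also called Stella, at a log2 ratio of 3.40, and Fbxo15, an F-box gene used as an ESC marker, at 1.00 with 490 FPKM with dox and 244 FPKM without dox. Dppa3 had 2.07 and 4.06 FPKM in R1 ESC replicates 1 and 2 and 1.65 FPKM in E14 ESC, so the dox library stood above all ESC and EpiLC libraries, where the highest value was 8.12 FPKM.

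Among 16 expressed core pluripotency factors, which naive and formative cells share, 6 were lower and none higher (37.5% counted). The median log2 ratio of the 16 was -0.72. Foxd3, a forkhead factor, had 3.71 FPKM with dox and 21.8 FPKM without dox. Sox2 had 61.6 FPKM with dox and 202 FPKM without dox (log2 ratio -1.70), and in the 5 ESC libraries without dox it was never under 156 FPKM. Pou5f1, which encodes Oct4, had 440 FPKM with dox and 1088 FPKM without dox (-1.30), and against Otx2-/- ESC, with 861 FPKM, its log2 ratio of -0.97 just missed the size rule. Sall1 and the RNA-binding protein gene Lin28a had log2 ratios of -1.32 and -1.12.

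Formative and primed epiblast genes went the other way. Of 13 with at least 5 FPKM, of 21 listed, 9 were higher with dox and none lower (69.2% counted). All 9 were above the 5 ESC libraries without dox, and the median log2 ratio of the 13 was 1.46. Car4, Krt18, Cxcl12, Pou3f1 and Cdh2, 5 of the 9, reached 5 FPKM with dox alone, so they could not have been counted as lower, and the split and the median are partly set by the minimum. Dnmt3a, a de novo DNA methyltransferase, had 48.9 FPKM with dox, against 13.4 FPKM without dox, 10.7 FPKM in Otx2-/- ESC, 9.63 and 10.5 FPKM in R1 ESC replicates 1 and 2, and 11.7 FPKM in E14 ESC (log2 ratio 1.80). Dnmt3b had 157 FPKM with dox, against 48.5 FPKM without dox and 28.6 to 77.1 FPKM over the 5 ESC libraries without dox (1.67). Cxcl12, a chemokine, had 5.11 FPKM with dox and 0.413 FPKM without dox. Beside these and the Car4 and Krt18 given above, Pou3f1, Krt8, Cldn6 and Cdh2 were counted, with log2 ratios of 1.05, 1.64, 1.46 and 1.17.

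The 2 textbook formative markers were below their EpiLC levels with dox. Pou3f1, also called Oct6, had 6.01 FPKM with dox and 2.38 FPKM without dox, against 42.0 to 72.2 FPKM in R1 and E14 EpiLC. Fgf5 had 3.63 FPKM with dox and 0.373 FPKM without dox, too low in both to be among the 9304, and its lowest value in R1 and E14 EpiLC was 28.4 FPKM. The formative list was put together with earlier results of these libraries known, so its direction is a description.

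**Figure D3:**
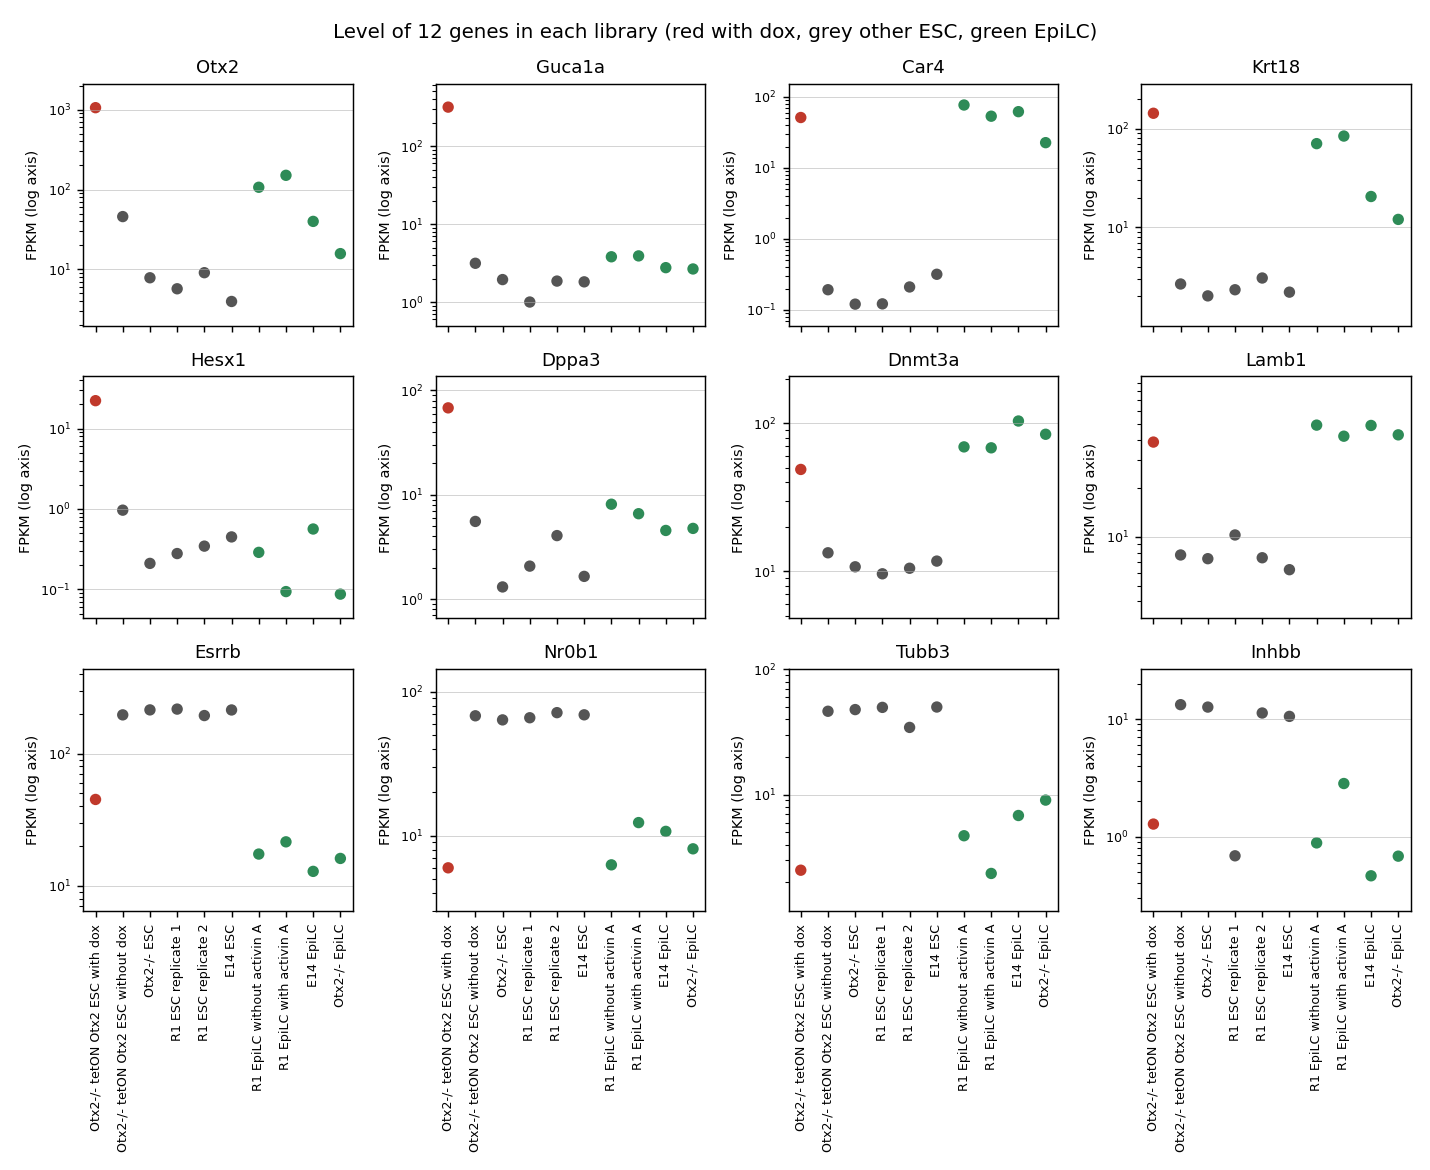
FPKM on a log axis of 12 genes in each of the 10 libraries (x axis), with dox at the left in red, the 5 ESC libraries without dox in grey and the 4 EpiLC libraries in green, 1 point per library. Guca1a, Hesx1 and Dppa3 are high with dox alone, Car4, Krt18, Dnmt3a and Lamb1 are high with dox and in EpiLC, and Esrrb, Nr0b1 and Tubb3 are low in both, while Inhbb is also low in R1 ESC replicate 1.

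The DNA methylation enzymes did not follow a common direction. Among 8 expressed members the rule counted 3 as higher and 2 as lower (62.5%). Dnmt3a and Dnmt3b were higher as given above, while Dnmt3l, their catalytically inactive partner, had 131 FPKM with dox and 265 FPKM without dox (log2 ratio -1.01). Against the 185 FPKM of Otx2-/- ESC the ratio of Dnmt3l was -0.49. Tet2, a dioxygenase that oxidises methylcytosine, had 6.57 FPKM with dox, against 27.1 FPKM without dox and up to 43.1 FPKM in the other ESC libraries (-1.89). The third counted as higher was Tet1, which had 24.7 FPKM with dox and was listed at 0 without dox, but had 78.8 to 97.1 FPKM in the 4 ESC libraries with no transgene. The maintenance enzyme gene Dnmt1 had 63.7 FPKM with dox and 83.7 FPKM without dox, under 2-fold.

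Hesx1, a homeobox gene of the anterior neural ridge and pituitary that Otx2 is known to act upstream of, had 22.2 FPKM with dox, against 0.967 FPKM without dox, 0.211 FPKM in Otx2-/- ESC, 0.279 and 0.345 FPKM in R1 ESC replicates 1 and 2, and 0.450 FPKM in E14 ESC (log2 ratio 3.56). No EpiLC library exceeded 0.564 FPKM. It was the single higher gene among 20 anterior patterning genes, of which 5 reached 5 FPKM. Lower were Fzd5, a Wnt receptor of the eye field, with 9.55 FPKM with dox and 33.3 FPKM without dox, and the secreted Wnt inhibitor Sfrp1, with 17.2 and 41.9 FPKM. The organiser gene Gsc, with 8.18 FPKM with dox and 3.72 FPKM without dox, missed the rule at 0.96. Of 14 retina and pigment epithelium genes 2 were expressed: Rlbp1, a retinaldehyde-binding protein, at 20.4 FPKM with dox and 6.53 FPKM without dox, and Mitf, the pigment cell regulator, at 3.45 and 10.3 FPKM.

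Among 10 expressed ERK targets and feedback genes 4 were lower and none higher (40% counted), with a median log2 ratio of -0.70. Spry4, Etv1 and Dusp6, 3 of the 4, reached 5 FPKM without dox alone, so they could not have been counted as higher. The split and the median are thus partly set by the minimum. Spry4, a feedback inhibitor of receptor tyrosine kinase signalling, had 0.388 FPKM with dox, against 13.9 FPKM without dox, 6.05 FPKM in Otx2-/- ESC, 31.5 and 7.60 FPKM in R1 ESC replicates 1 and 2, and 8.57 FPKM in E14 ESC. The dox library was lowest, and the ESC libraries without dox also differed widely among themselves. The ETS factor genes Etv4 and Etv1 had 6.10 and 3.28 FPKM with dox and 29.7 and 9.20 FPKM without dox, and the ERK phosphatase gene Dusp6 had 2.66 FPKM with dox and 12.7 FPKM without dox. Of the FGF ligands and receptors, Fgf4 and Fgfr1 were expressed, with log2 ratios of -0.79 and 0.19.

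In the Nodal and Activin pathway 3 of 15 expressed genes were lower and none higher, 20% counted against 12.1% of all 9304 genes. The median log2 ratio was -0.61. Inhbb, which encodes an activin subunit, had 1.28 FPKM with dox, against 13.3 FPKM without dox and 12.6, 11.3 and 10.5 FPKM in Otx2-/- ESC, R1 ESC replicate 2 and E14 ESC. R1 ESC replicate 1 was lower still, at 0.686 FPKM, so the dox value lay inside the range of the 5 libraries. Smad7, an inhibitor of both TGF-beta and BMP signalling, had 7.74 FPKM with dox and 30.2 FPKM without dox, and the receptor gene Acvr1b had 8.37 and 18.4 FPKM. Against Otx2-/- ESC the log2 ratio of Acvr1b was -0.85, under the size rule. Nodal itself had 46.8 FPKM with dox and 45.8 FPKM without dox.

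Among 8 expressed BMP targets and regulators 3 were lower, Smad7 among them, and 1 higher (50% counted). Bmp4 and Smad6 reached 5 FPKM without dox alone, so they could not have been counted as higher. The ligand gene Bmp4 had 1.92 FPKM with dox, against 15.9 FPKM without dox and at least 8.38 FPKM in all 5 ESC libraries without dox. Smad6, an inhibitor of BMP signalling, had 2.11 FPKM with dox and 7.31 FPKM without dox, and 1.14 FPKM in R1 ESC replicate 1, again lower than with dox. Its log2 ratio against Otx2-/- ESC was -0.81. Another ligand gene, Bmp7, was higher, with 15.7 FPKM with dox and 5.18 FPKM without dox. Among 10 expressed Wnt targets and regulators 3 were lower and 1 higher (40% counted). Each of these reached 5 FPKM in 1 library of the pair alone, so the minimum fixed its direction. Notum, a secreted enzyme that inactivates Wnt, had 1.18 FPKM with dox and 18.6 FPKM without dox. The homeobox gene Cdx1 had 2.66 FPKM with dox and 11.1 FPKM without dox, and the receptor gene Fzd10 had 3.63 and 13.4 FPKM. The receptor gene Fzd2 was higher, with 10.9 FPKM with dox and 3.86 FPKM without dox, and the median of the Wnt list, -0.09, was close to that of all genes. In the LIF and Stat3 pathway 1 of 10 expressed genes was counted, 10% against 12.1% of all 9304 genes. This was the kinase gene Pim3, with 38.1 FPKM with dox and 79.3 FPKM without dox. Against Otx2-/- ESC the log2 ratio of Pim3 was -0.96.

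**Figure D4:**
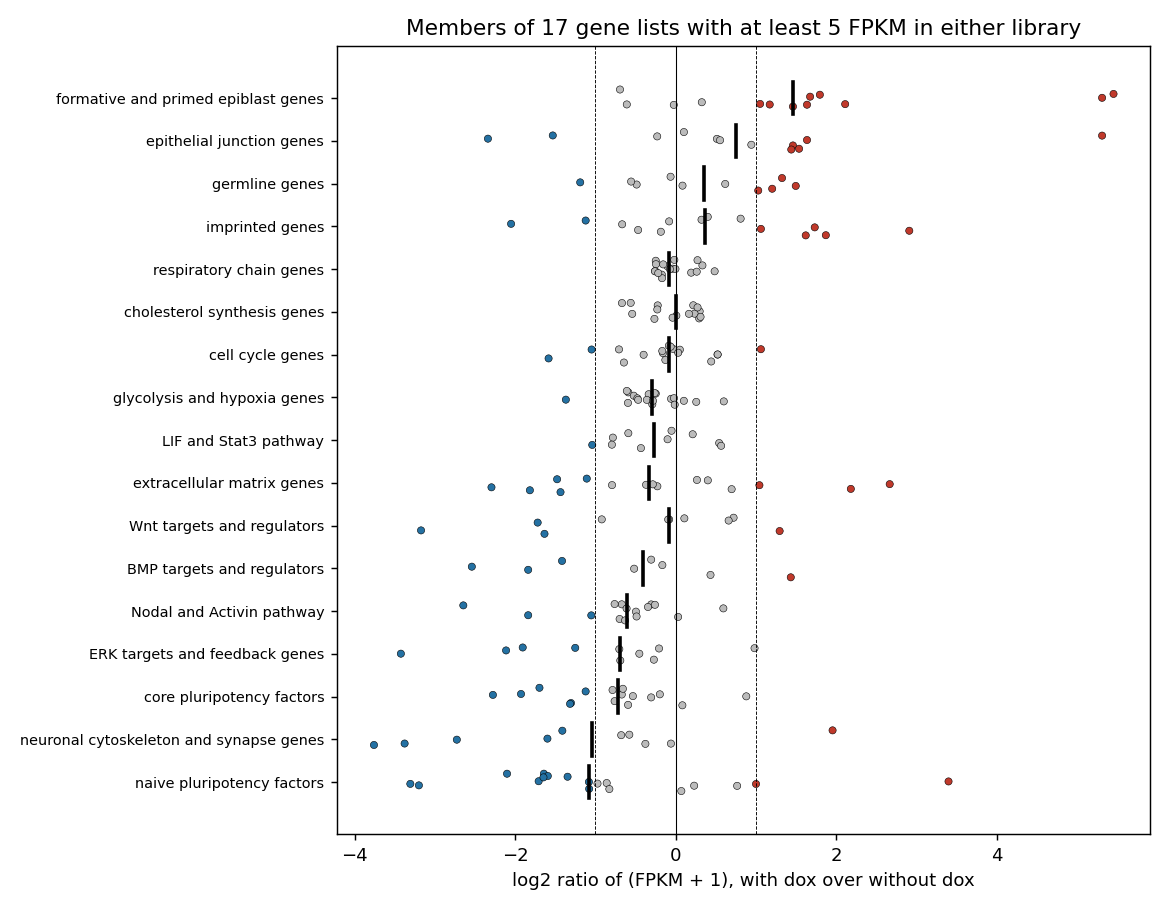
Log2 ratio of (FPKM + 1), with dox over without dox (x axis), for members of 17 gene lists with at least 5 FPKM in either library, 1 point per gene, leaving out entries listed at 0. Red points are counted as higher, blue as lower, grey as neither, dashed lines mark 2-fold and the black bars are list medians, among them 1.46 for formative and primed epiblast genes and -1.08 for naive pluripotency factors.

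Epithelial junction genes had a median log2 ratio of 0.75, with 5 of 12 expressed members higher and 2 lower (58.3% counted). Of the 5 higher, Krt18, Krt8 and Cldn6 were also counted in the formative list above. The minimum of 5 FPKM was met with dox alone by 3 of the 5, which could not have been counted as lower. Beside Krt18, its partner keratin gene Krt8 had 29.7 FPKM with dox and 8.87 FPKM without dox. The claudin gene Cldn7 had 8.29 FPKM with dox and 2.20 FPKM without dox, and Cldn6 and the tight junction gene Cgn had log2 ratios of 1.46 and 1.44. Lower were the claudin gene Cldn4, with 13.9 FPKM with dox and 42.0 FPKM without dox, and Jam2, a junctional adhesion molecule, with 11.9 and 64.3 FPKM. Among 9 expressed mesenchymal and adhesion genes, Snai1, a repressor of E-cadherin, had 39.2 FPKM with dox, against 4.46 FPKM without dox and at most 5.99 FPKM in the 5 ESC libraries without dox. The N-cadherin gene Cdh2, also in the formative list, had 6.71 FPKM with dox and 2.42 FPKM without dox. Fibronectin (Fn1) was lower, with 72.6 FPKM with dox and 198 FPKM without dox, as was vimentin (Vim), with 115 and 262 FPKM. E-cadherin (Cdh1) had 68.6 FPKM with dox and 80.6 FPKM without dox.

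Of 16 expressed extracellular matrix genes 3 were higher and 6 lower (56.2% counted). The gelatinase gene Mmp2 had 13.3 FPKM with dox and 1.26 FPKM without dox. The laminin chain gene Lamb1 had 38.6 FPKM with dox, against 7.73 FPKM without dox and 6.27 to 10.3 FPKM over the 5 ESC libraries without dox, and the collagen gene Col4a2 had 13.7 FPKM with dox and 6.11 FPKM without dox. Basement membrane genes on the lower side were nidogen (Nid1), with 15.7 FPKM with dox and 80.9 FPKM without dox, perlecan (Hspg2), with 15.8 and 58.2 FPKM, Lama1, with 2.93 and 9.94 FPKM, and agrin (Agrn), with 34.2 and 74.8 FPKM. The other 2 of the 6 were Fn1, given above, and Lama5, which was listed at 0 with dox and had 38.1 FPKM without dox, so no ratio is given.

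Genes of the neuronal cytoskeleton, which ESCs in 2i express, had a median log2 ratio of -1.05. Of 10 expressed members 5 were lower and 1 higher (60% counted). Among the 5 lower, 4 reached 5 FPKM without dox alone, so they could not have been counted as higher. The tubulin gene Tubb3 had 2.50 FPKM with dox, against 46.4 FPKM without dox, 47.8 FPKM in Otx2-/- ESC, 49.8 and 34.5 FPKM in R1 ESC replicates 1 and 2, and 50.1 FPKM in E14 ESC (log2 ratio -3.76). Stmn2, a microtubule regulator, had 13.6 FPKM with dox, against 150 FPKM without dox and up to 341 FPKM in R1 ESC replicate 1 (-3.38), and its relative Stmn3 had 1.56 FPKM with dox and 15.9 FPKM without dox. The dox library was the lowest of the 6 ESC libraries for these 3 genes. The tau gene Mapt and the neurofilament gene Nefm had log2 ratios of -1.41 and -1.60, and Nefm had 1.49 FPKM with dox but 1.09 FPKM in R1 ESC replicate 1. Dpysl3, a growth cone protein, was higher, with 24.99 FPKM with dox and 5.71 FPKM without dox. In the neural list 1 of 7 expressed genes was higher and 4 lower (71.4% counted), with a median log2 ratio of -1.60. Of the 4 lower, Tubb3, Stmn2 and Nefm are the same genes as in the cytoskeleton list. Tubb3, Nefm and Sox21 reached 5 FPKM without dox alone, so they could not have been counted as higher. Nes, an intermediate filament gene of neural progenitors, had 12.9 FPKM with dox and 5.12 FPKM without dox. The neural factor Sox21 had 1.10 and 6.57 FPKM with and without dox.

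Genes of other roles were among the 12 lowest log2 ratios. Eras, an ESC-specific Ras gene on chromosome X, had 1.48 FPKM with dox, against 34.2 FPKM without dox, 19.2 FPKM in Otx2-/- ESC, 13.9 and 26.0 FPKM in R1 ESC replicates 1 and 2, and 22.1 FPKM in E14 ESC (log2 ratio -3.82). The dox library alone was low, and EpiLC libraries had 8.82 to 24.2 FPKM. Ntn1, the axon guidance factor netrin 1, had 0.877 FPKM with dox and 18.5 FPKM without dox. Tgfbi, a matrix protein gene, had 0.175 FPKM with dox and 11.8 FPKM without dox, and Tgm1, a transglutaminase of the epidermis, 0.753 and 15.2 FPKM. Spink3, a protease inhibitor, had 0.663 FPKM with dox and 16.7 FPKM without dox, and the keratin gene Krt42 had 0.223 and 11.3 FPKM. The unnamed transcript 1700097N02Rik had 0.830 FPKM with dox and 24.0 FPKM without dox. In all, 10 usable lower genes were under 1 FPKM with dox and at least 5 FPKM in every ESC library without dox.

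Germline and imprinted genes had members on both sides. Of 10 expressed germline genes 4 were higher and 1 lower (50% counted). The RNA-binding protein gene Dazl had 26.8 FPKM with dox and 8.86 FPKM without dox. The synaptonemal complex gene Sycp3 had 16.6 FPKM with dox and 6.66 FPKM without dox, Mael, of the piRNA pathway, 15.3 and 7.01 FPKM, and the homeobox gene Rhox6 5.30 and 1.52 FPKM. Stra8, a meiosis inducer, had 2.86 FPKM with dox and 7.81 FPKM without dox, and it had 0.354 FPKM in R1 ESC replicate 1. Of 14 expressed imprinted genes 5 were higher and 2 lower (50% counted). The Notch-related gene Dlk1 had 7.46 FPKM with dox and 0.125 FPKM without dox, the noncoding RNA H19 9.22 and 2.07 FPKM, and Peg10 109 and 34.7 FPKM. Nnat had 15.0 FPKM with dox and 3.38 FPKM without dox, but 16.1 FPKM in R1 ESC replicate 1. Phlda2 was lower, with 6.55 FPKM with dox and 30.3 FPKM without dox. Among 6 expressed genes of the 2-cell-like state, Zscan4f alone was counted (16.7%), with 26.5 FPKM with dox and 11.8 FPKM without dox. Its value and that of Rhox6 are uncertain because near-identical copies share reads.

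Over all 9304 genes 12.1% were counted in either direction. None of 18 respiratory chain genes, 15 cholesterol synthesis genes or 9 unfolded protein and heat shock genes with at least 5 FPKM was counted, and their median log2 ratios were -0.09, 0.01 and -0.28. Of 19 glycolysis and hypoxia genes 1 was counted, the phosphofructokinase gene Pfkp, with 34.6 FPKM with dox and 90.8 FPKM without dox. Of 17 expressed cell cycle genes 1 was higher and 2 lower (17.6%). Cdkn1c, an inhibitor of cyclin-dependent kinases, had 12.5 FPKM with dox and 5.46 FPKM without dox, Myc 1.15 and 5.45 FPKM, and Mycn 17.04 and 36.3 FPKM. Of 13 expressed p53 targets and stress genes, Gadd45a and Gadd45b were lower (15.4% counted). They had 4.48 and 5.81 FPKM with dox and 10.7 and 20.4 FPKM without dox. Against Otx2-/- ESC the log2 ratios of Gadd45a, Cdkn1c and Mycn were -0.33, 0.61 and -0.81, under the size rule. In the integrated and mitochondrial stress response list 3 of 17 expressed genes were higher and 1 lower, 23.5% of the list. Atf3, a stress-induced factor, had 6.40 FPKM with dox and 0.203 FPKM without dox. Ddit4, an mTOR inhibitor, had 61.6 FPKM with dox and 11.5 FPKM without dox, and Phgdh, the first enzyme of serine synthesis, 169 and 48.5 FPKM. Shmt2, a mitochondrial serine enzyme, was lower, with 44.4 FPKM with dox and 93.7 FPKM without dox. Over the 20 chromosomes with 50 or more genes the median log2 ratio lay between -0.12 and 0.02.

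Libraries that the dox pair does not share allowed a test of what the same genes do when wild-type ESCs become EpiLCs. R1 without activin A, R1 with activin A and E14 EpiLC were compared with R1 ESC replicates 1 and 2 and E14 ESC (limma on log2(FPKM + 1) with the line as a covariate, n = 3 each). Of 12244 genes tested, 1191 rose (9.73%) and 1293 fell (10.6%) in EpiLC at an adjusted p below the threshold of 0.05. Of the 597 genes higher with dox 511 could be tested, of which 154 rose (30.1%) and 34 fell (6.65%). Of the 531 lower with dox 524 could be tested, of which 15 rose (2.86%) and 242 fell (46.2%). Among the 8163 tested genes that were neither, 5.51% rose and 10.5% fell. Among all 9198 tested genes with at least 5 FPKM in either library of the dox pair, 6.73% rose and 12.3% fell. That minimum was met with dox alone by 358 of the 597 and without dox alone by 278 of the 531. Its part in these shares was not tested. Over 8978 usable genes the log2 ratio with dox and the EpiLC fold change had a Pearson r of 0.428 and a Spearman rho of 0.317 across genes, which are not independent replicates.

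The counts of the EpiLC test moved with single libraries. The 154 genes that were higher and rose became 91 when E14 ESC was left out and 82 when E14 EpiLC was. Leaving out the R1 EpiLC library with activin A gave 64, and leaving out the one lacking it gave 49. Over all genes the number that rose went down as well, to 499, 441, 322 and 211 in these fits, against 1191, so that the genes higher with dox were 18.2%, 18.6%, 19.9% and 23.2% of those that rose, against 12.9% with all libraries. The 242 that were lower and fell became 137, 133, 141 and 108 in the same order, and were 39.7%, 40.1%, 51.1% and 57.8% of all genes that fell, against 18.7% with all libraries. The 34 became 8, 8, 5 and 4, and 69 without R1 ESC replicate 1, and the 15 became 8, 8, 8 and 3, and 26 without R1 ESC replicate 1. In the fit without R1 ESC replicate 1, the genes higher with dox were 10.3% of the 1890 that rose. Those lower with dox were then 13.4% of the 2228 that fell, so both shares went down. Leaving out R1 ESC replicate 2 gave 13.6% and 20.7%. The labels' protocols describe the replicates as independent cultures, and the 3 EpiLC libraries differ in line or activin A.

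Car4 rose in EpiLC to 64.1 ± 11.8 FPKM, against 0.217 ± 0.0982 FPKM in ESC (SD, n = 3 each; limma adjusted p = 0.000672), and its log2 fold change was 5.73 ± 0.18 (SE). Krt18 rose by a log2 fold change of 3.86 ± 0.37 (limma adjusted p = 0.00438), and Dnmt3a by 2.79 ± 0.14 (limma adjusted p = 0.00141). Esrrb fell in EpiLC to 17.2 ± 4.32 FPKM, against 208 ± 12.5 FPKM in ESC (SD, n = 3 each; limma adjusted p = 0.00141). Nr0b1 had a log2 fold change of -2.74 ± 0.25 (limma adjusted p = 0.00407) and Tubb3 of -3.09 ± 0.28 (limma adjusted p = 0.00395). In these genes the dox pair and the EpiLC test had the same sign. Of the formative genes higher with dox, 8 of 9 rose in EpiLC, and of the naive factors lower with dox 9 of 10 fell. Both lists were chosen with earlier results of these data known, so these counts are a description and not a check. With dox, 115 of the 154 shared higher genes were at or above the lowest of the 3 EpiLC libraries, and 83 were above the highest. Of the 242 shared lower genes, 117 were at or below the highest of the 3, and 60 were below the lowest.

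Genes outside this overlap were as marked. Guca1a, the largest difference with dox, had 3.49 ± 0.634 FPKM in EpiLC and 1.56 ± 0.483 FPKM in ESC (SD, n = 3 each; limma adjusted p = 0.0584). Hesx1 was too low in both states to be tested. For Eras (log2 fold change -0.68 ± 0.29, limma adjusted p = 0.150) and Spry4 (-0.36 ± 0.65, limma adjusted p = 0.711) no difference between EpiLC and ESC passed. None of the 4 lower ERK genes fell in EpiLC. Fbxo15 was higher with dox and fell in EpiLC (log2 fold change -2.12, limma adjusted p = 0.0129). Calca, which encodes calcitonin and CGRP and was chosen after its values were seen, was lower with dox, at 0.987 FPKM against 6.71 FPKM without dox, and rose in EpiLC to 44.1 FPKM, against 6.55 FPKM in ESC (limma adjusted p = 0.00283).

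**Figure D5:**
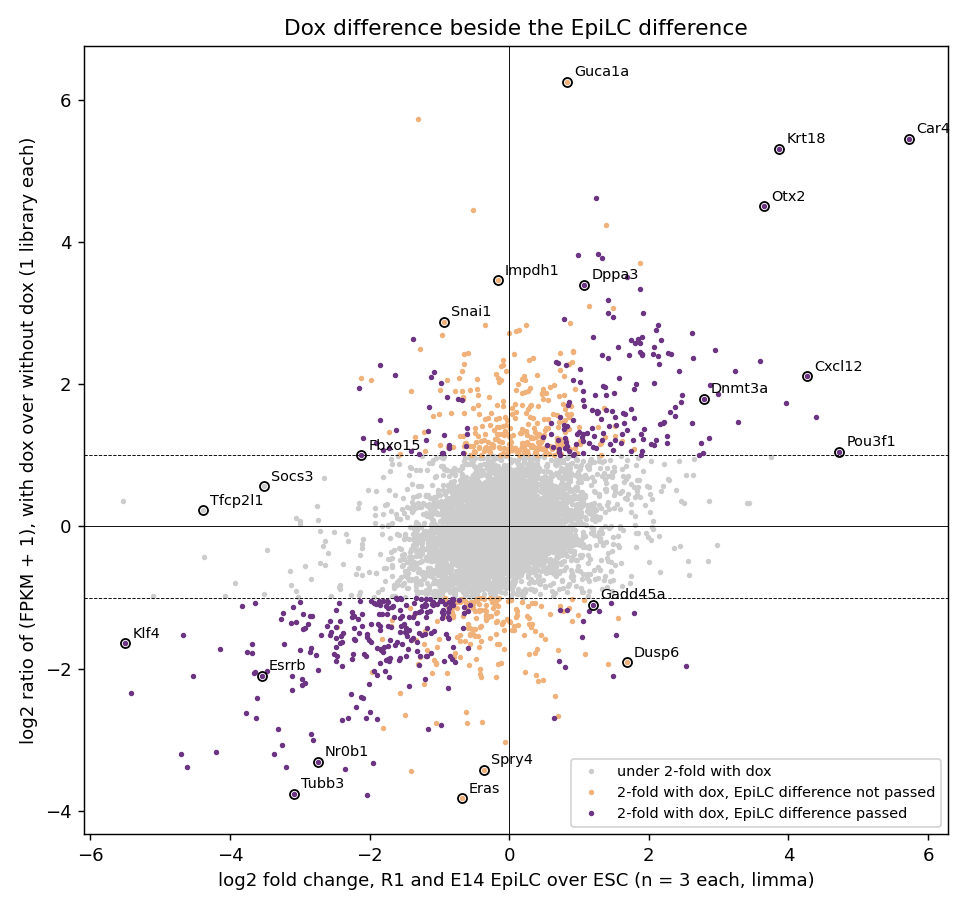
Log2 ratio of (FPKM + 1) with dox over without dox (y axis, 1 library each) against the log2 fold change of R1 and E14 EpiLC over ESC (x axis, n = 3 each), 1 point per usable gene tested. Purple points are 2-fold with dox and passed the EpiLC test, orange points are 2-fold with dox and did not, grey points are under 2-fold, dashed lines mark 2-fold, and Car4, Krt18 and Otx2 lie at the upper right, Klf4, Esrrb and Nr0b1 at the lower left, and Guca1a near the top with an EpiLC fold change that did not pass.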

How the data were processed

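Polyadenylated RNA was sequenced on an Illumina Genome Analyzer from a library protocol that does not mark strand, per the labels' protocols. The deposited values are FPKM per gene that the authors made with TopHat and Cufflinks on mm9, per the submitters' processing notes. The sources used here do not give versions, annotation or settings, and no counts were used. Each table had 23112 entries. After 17 exact repeats were dropped, entries of 1 symbol were summed, leaving 22867 symbols. Depth was approximated from the FPKM steps of 1110 olfactory genes.

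The dox pair was compared by log2 ratios of (FPKM + 1), with at least 5 FPKM in either library and a fold of 2, and no test. EpiLC and ESC were compared with limma 3.58.1 (R 4.3.3; trend, line as covariate, two-sided, mean of at least 1 FPKM, Benjamini-Hochberg adjustment), checked on simulated data. Named genes were the 12 largest and 12 lowest usable log2 ratios, and the 5 largest counted members of each of 31 lists; others were chosen after their values were seen, and some genes are not reported here. Members and lists were chosen with earlier results of these data known, and 2 further lists after values were seen. Other pseudocounts, minimums, folds, scalings and references, and leaving out libraries, were tried.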

Additional observations from a re-analysis of the deposited data

How the results depend on the processing

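The counts of genes by size, 597 higher and 531 lower with dox, moved most with the fold: 1142 and 1194 at 1.5-fold, and 291 and 250 at 3-fold. With a pseudocount of 5 they were 338 and 331. With a minimum of 1 FPKM or with no minimum, 901 genes were higher. All other settings gave counts within 1.5 times, and median-ratio and quantile scaling gave 584 and 617 higher and 537 and 521 lower. Leaving out 1 library of the EpiLC test gave between 49 and 194 genes that were higher with dox and rose, between 4 and 69 that were higher and fell, between 3 and 26 that were lower and rose, and between 108 and 299 that were lower and fell. Fewer samples stand behind each of these fits, and the cause of the spread was not tested. The log2 ratio of Tet1 was reversed, to -1.93, with Otx2-/- ESC in place of the library without dox, where Tet1 is listed at 0. A value moved little here if it changed by less than the gene's SD of log2(FPKM + 1) over the 5 ESC libraries without dox. Of 530 values of 106 named genes under other settings, 377 moved little so defined, 152 moved more and 1, that of Tet1, reversed. By this measure Myc moved little with a pseudocount of 5, from a log2 ratio of -1.58 to -0.76, which is under 2-fold. Under 2-fold were 28 named genes with a pseudocount of 5 (with Fgf5, which the size rule had not counted), Cxcl12 (log2 ratio 0.90), Pou3f1 (0.58) and Cldn7 (0.88) among them, 8 against Otx2-/- ESC and 4 with quantile scaling, which were Dnmt3l, Mycn, Pim3 and Shmt2. No paired analysis was possible because the dox pair has 1 library a group and the labels number R1 ESC replicates alone. At the depth of the dox library, low genes are the least certain.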

Other observations

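A list of 44 photoreceptor genes was put together after the values were seen, so its direction is a description. Of these 5 had at least 5 FPKM in either library of the dox pair, and these were higher with dox. Guca1a, Nxnl2 and Sag reached 5 FPKM with dox alone, so the minimum fixed their direction, and the other listed genes are not in this count. Beside Guca1a they were Impdh1, an enzyme of guanine nucleotide synthesis, with 291 FPKM with dox, against 25.5 FPKM without dox, and Unc119, a lipid-binding trafficking protein, with 109 FPKM with dox and 24.3 FPKM without dox. Nxnl2, a thioredoxin-like gene of photoreceptors, had 8.20 FPKM with dox and 0.105 FPKM without dox, and Sag, the rod arrestin, 5.51 and 0.0235 FPKM. Crx, the photoreceptor homeobox gene, had 0.915 FPKM with dox and 0.719 FPKM without dox, and 6 genes of the list were listed at 0 with dox. Of these genes 3 could be tested in EpiLC and none rose.

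Of 29 interferon response genes, also listed after the values were seen, 14 had at least 5 FPKM. Of these 14 genes, 4 were higher and 5 lower with dox (64.3% counted). Only 2 of the 4 higher were above the 5 ESC libraries without dox, while the 5 lower were below them. Ifitm3, an antiviral membrane protein, had 28.6 FPKM with dox and 199 FPKM without dox, while Bst2, tetherin, had 66.0 FPKM with dox and 15.8 FPKM without dox. Trim25 was listed at 0 without dox.

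Other genes were picked out after their values were seen. Gpx4, a lipid peroxide reductase, had 2333 FPKM with dox and 610 FPKM without dox. Pdpn, podoplanin, had 197 FPKM with dox and 13.4 FPKM without dox. The retinol transport genes Stra6 and Rbp4 had 6.97 and 6.48 FPKM with dox and 0.337 and 0.432 FPKM without dox. Tdh, threonine dehydrogenase of mouse ESCs, had 71.5 FPKM with dox and 312 FPKM without dox.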
